A study of Mus musculus with 12 samples.

Results

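The genes described here encode the proteins of the cytosolic ribosome. They were taken as the protein-coding rows of the expression table whose symbol starts with Rpl (large subunit, 60S) or Rps (small subunit, 40S), leaving out the S6 kinases, which start with Rps6k, and Rps19bp1. The rule gave 93 of 54532 rows, 59 with 60S names and 34 with 40S names. Of these, 77 encode the standard set of ribosomal proteins, 8 are paralogs of standard genes, and 8 carry pseudogene-like symbols ending in -ps and a number although the table lists them as protein-coding. RNA came from the lateral septum, a forebrain nucleus, of wild-type mice at day 3 after an injection. The 6 saline libraries are the controls, and the 6 CFA libraries carry the label for what pain research usually means by complete Freund's adjuvant, an oil emulsion that causes lasting local inflammation. Both groups are WT and no transgene or other agent is labelled. Whether each library came from its own animal is not labelled, so the p-values speak of the spread among these libraries only, which may be technical.

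A ribosome joins amino acids into protein. Its large subunit holds the site where the peptide bond forms and the tunnel through which the new chain leaves, and its small subunit reads the messenger RNA. Ribosomal protein mRNAs are among the most abundant of most cells, and many start with a C and a run of pyrimidines, the terminal oligopyrimidine (TOP) tract. Through this tract the growth-regulating kinase complex mTORC1 and the RNA-binding protein LARP1 control how much they are translated, a step that RNA levels do not measure.

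Recovered depth was 33.6 to 39.2 M reads per library. Neuronal and septal markers were detected in all libraries: the 7 septal neuron markers, among them Zic1, Trpc4 and Gad1, summed to 422 to 488 FPKM in saline and 367 to 496 in CFA. FPKM counts fragments per kilobase of a gene, relative to the reads of its library. Several libraries stood apart in other cell types. The 8 striatal neuron markers summed to 84.3 to 148 FPKM in saline and 87.1 to 271 in CFA, the 5 erythroid genes to 157 to 333 and 78.9 to 668, and the 7 choroid plexus markers to 19.3 to 2356 and 19.7 to 62.4, with saline 3 and saline 5 at the top. None of the genes of these lists was at 0 in all libraries. Bulk RNA cannot tell fewer cells of a type from less RNA per cell. The part of these differences in the values below was not tested, except where a value without the library is given.

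Of the 93 genes, 82 passed the filter of 1 FPKM in at least 6 libraries and 11 did not. Among those tested, the mean level over the 12 libraries ran from 2.54 FPKM (Rpl10-ps3) to 652 FPKM (Rplp1), with a median of 64.7 FPKM. On the same scale per gene length, the 30 standard 40S genes tested had a median of 79.3 FPKM and the 45 standard 60S genes 63.2 FPKM. Rplp1, an acidic protein of the stalk that recruits elongation factors, stood far above the next genes, Rps15, Rps3a1, Rpl4, Rpl41 and Rpl8. These genes together took 1.07% to 1.12% of recovered reads in the saline libraries (median 1.09%) and 1.02% to 1.15% in the CFA libraries (median 1.10%), so the CFA range contained the saline range.

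**Figure D1:**
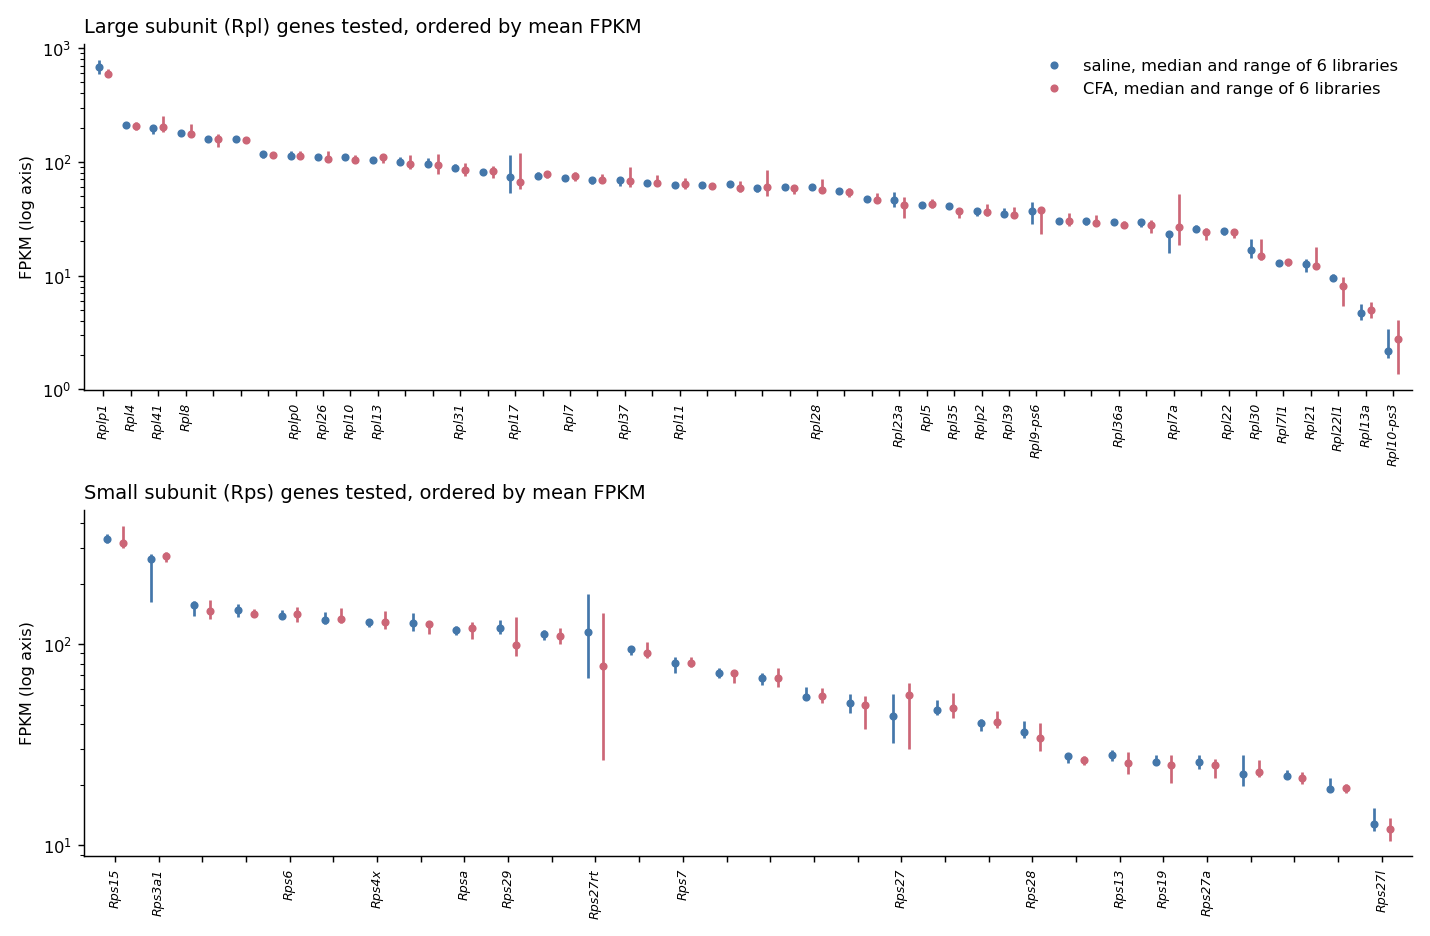
Median (point) and range (line) of FPKM over 6 saline and 6 CFA libraries for 78 of the ribosomal protein genes tested, on a log axis (names are given for genes described in the text), ordered by mean level, with 60S genes above and 40S genes below. Rplp1 and Rps15 head their subunits, most genes have narrow and overlapping ranges, and Rps27, Rps27rt, Rpl17 and Rpl7a have wide ones.

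The first question was whether any of these genes differed in RNA level between CFA and saline. No gene passed the test. With limma on log2(FPKM + 1) and Benjamini-Hochberg adjustment over all 13345 genes tested, 0 of the 82 passed an adjusted p of 0.05, and the smallest adjusted p was 0.420 (Rplp1). Over the whole table, 0.03% passed (4 genes), 0.015% higher and 0.015% lower. At an unadjusted p under 0.05 there were 5 of 82, all with lower means in CFA, where the whole table had 7.67% in both directions together, 4.56% lower and 3.11% higher. Genes at high levels leaned the same way: of 1992 other genes between the 10th and 90th percentile of the levels of this set, 193 were lower and 25 higher. With voom on reads recovered from the FPKM values, the counts were 0 at the adjusted and 6 at the unadjusted threshold. No gene had groups that did not overlap, where the whole table had 0.495%.

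Differences are of log2(FPKM + 1), with saline subtracted from CFA. For 63 of the 82 genes the 95% interval of the difference lay within 0.25 of 0. The difference was negative for 48 genes and positive for 34, with a median of -0.0228, beside a median of -0.00427 and 52% negative over all genes tested. The median was -0.0109 over the 49 60S genes and -0.0356 over the 33 40S genes. Genes at the same levels (the middle 80% of the range of these genes, 1992 other genes) had a median of -0.0329, with 1422 of them negative. This split depended on the scaling. As TPM, 51 were positive and 31 negative, and scaled to the FPKM outside ribosomal protein and mitochondrially encoded genes, 54 were positive and 28 negative, while the median of all genes moved to 0.0328 and 0.0403. Directions named below are therefore relative to the deposited scaling. Of the genes whose differences are given below, the last scaling moved Rpl35 to -0.10, Rps13 to -0.06 and Akt1s1 to -0.09. It changed the sign of others: Rplp0 became 0.04, Rpl10 0.009, Rpl39 0.02 and Fau 0.02.

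**Figure D2:**
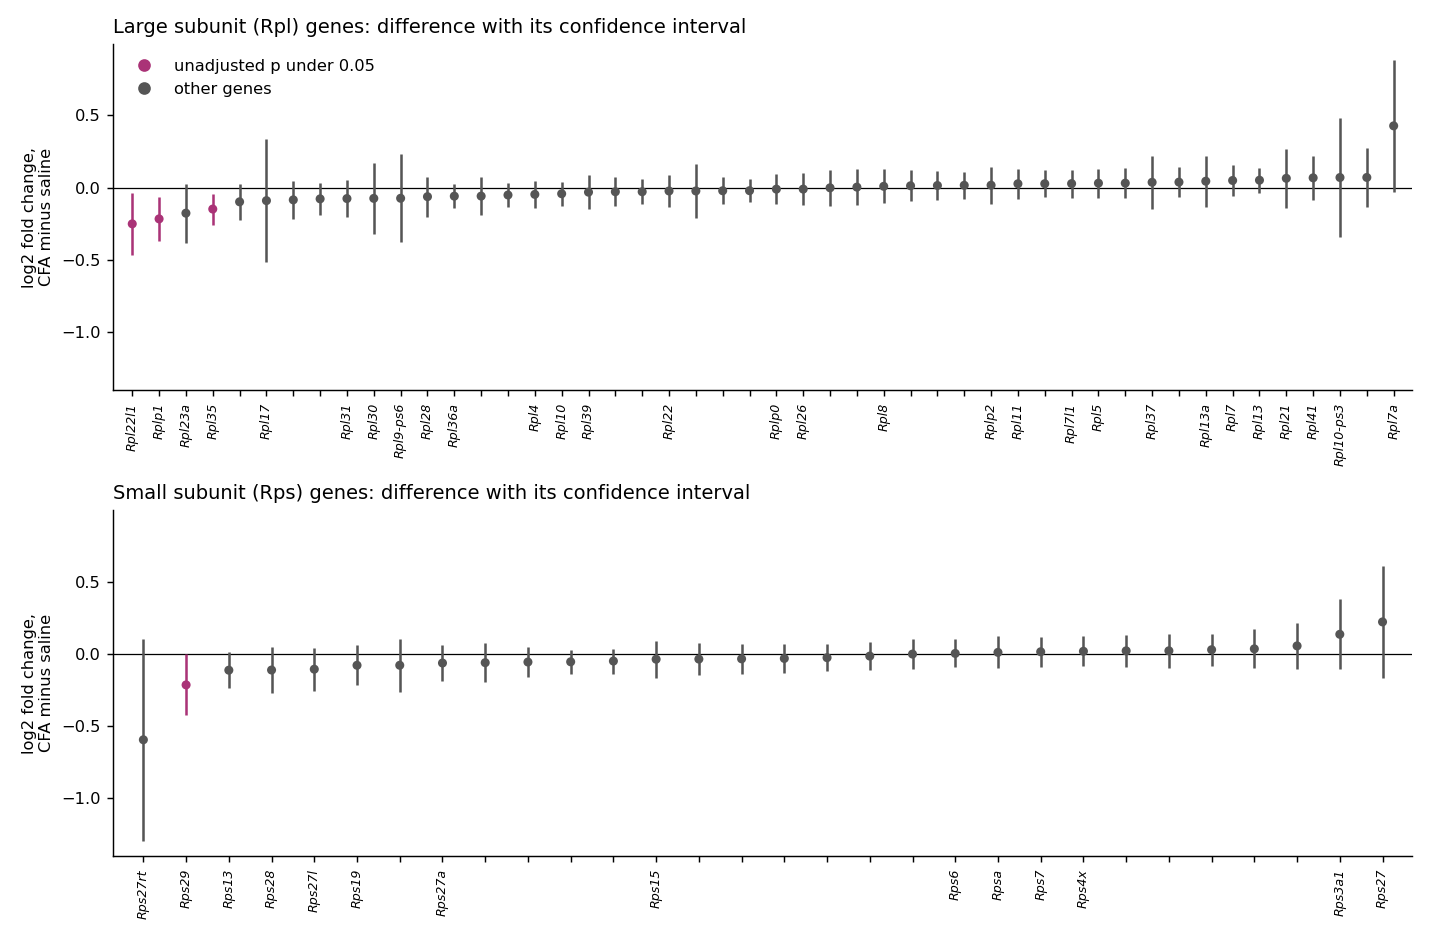
Difference of mean log2(FPKM + 1), saline subtracted from CFA (point), with its 95% interval from limma (line) for 78 of the 82 genes tested, 60S above and 40S below, with names for genes described in the text. The 4 genes drawn at an unadjusted p under 0.05 (magenta) all lie below 0, and the widest intervals belong to Rps27rt, Rpl7a, Rpl17, Rpl10-ps3 and Rps27.

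Of the genes with an unadjusted p under 0.05, 4 are described here, and they come from different places in the ribosome. Rplp1 (chr9:61913284-61914542, minus strand, coordinates of GRCm38 throughout) had 589, 689 and 790 FPKM as the lowest, median and highest saline library and 552, 598 and 656 FPKM in CFA. Both groups overlapped, with 3 CFA libraries below all saline libraries. The difference was -0.22 ± 0.07 (SE; limma, adjusted p = 0.420).

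Rpl35 (chr2:39001580-39005624, minus strand), which sits at the mouth of the peptide exit tunnel, had 38.1, 40.8 and 43.8 FPKM in saline and 32.3, 37.2 and 39.1 FPKM in CFA. Its difference was -0.15 ± 0.05 (SE; limma, adjusted p = 0.438). Of the CFA libraries, 4 lay below all saline libraries, and the groups overlapped.

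Rps29 (chr12:69157722-69159186, minus strand), a zinc-binding protein of the 40S head, had 112, 120.5 and 132 FPKM in saline and 87.6, 98.9 and 137 FPKM in CFA. The highest value of all was a CFA library, CFA 4. The difference was -0.22 ± 0.10 (SE; limma, adjusted p = 0.646), and -0.29 without CFA 4 (limma, adjusted p = 0.148). Gm14303, a copy that shares sequence with Rps29, held 623 reads in CFA 4, against 804 to 1596 in the other libraries. Summed with this copy, CFA 4 had 112 reads per M reads, within the CFA range of 92.3 to 113. The difference with the copy summed was -0.17 (limma, adjusted p = 0.395), an alternative chosen after the data were seen. Rpl22l1 (chr3:28805436-28807424, plus strand), a paralog of Rpl22, had 9.17, 9.46 and 10.4 FPKM in saline and 5.41, 8.12 and 9.72 FPKM in CFA. Here CFA 4 held the lowest value, and the difference was -0.25 ± 0.10 (SE; limma, adjusted p = 0.583) with it and -0.16 without it (limma, adjusted p = 0.279).

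**Figure D3:**
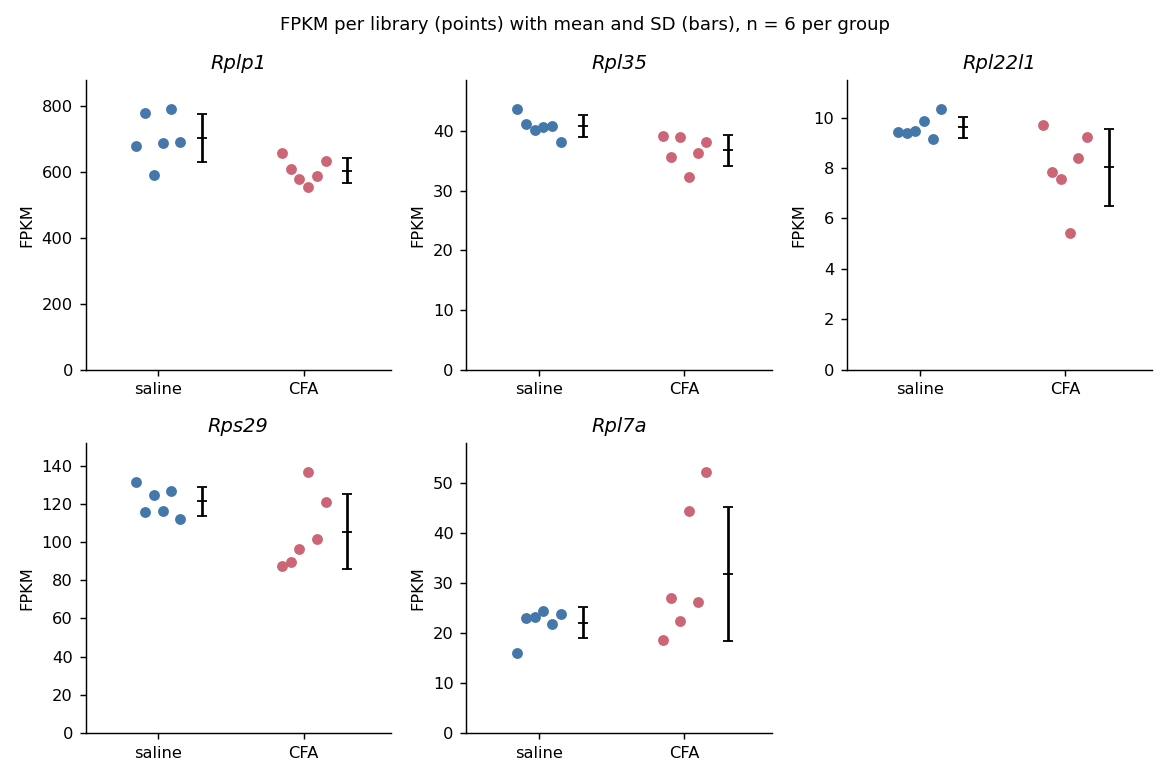
FPKM of 4 genes with an unadjusted p under 0.05 and of Rpl7a, the gene with the largest positive difference, in each library (points), with mean and SD of 6 libraries per group (bars), axes starting at 0. In every panel the CFA and saline points overlap, and in the Rpl7a panel 2 CFA libraries lie far above the rest.

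On the higher side no gene reached an unadjusted p of 0.05. Rpl7a (chr2:26910764-26913318, plus strand), a 60S protein, had the largest positive difference, 0.43 ± 0.21 (SE; limma, adjusted p = 0.682). Its saline libraries had 15.9, 23.1 and 24.5 FPKM as lowest, median and highest, and its CFA libraries 18.6, 26.5 and 52.2 FPKM. Only CFA 6 and CFA 4 (44.3 FPKM) were far above the saline range. Without CFA 6 the difference was 0.27, and with the reads of its copies summed it was 0.26 (limma, adjusted p = 0.854 and 0.713). Other genes with small p-values on this side were Rpl13, Rps27, Rps3a1, Rpl41 and Rpl7, with adjusted p between 0.813 and 0.867 (limma).

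The 60S subunit was then read by structural part. In the stalk, where elongation factors dock, Rplp0, the base, had a mean of 115 ± 6.51 FPKM in saline and 114 ± 6.58 in CFA (± SD, 6 libraries each), and Rplp2, the partner of Rplp1, 36.6 ± 2.15 and 37.1 ± 3.34 FPKM (± SD, 6 libraries each). Their differences were -0.01 and 0.02, beside -0.22 for Rplp1, and the stalk genes were not tested against each other. Rpl5 and Rpl11, which with 5S rRNA form the particle that also binds and inhibits the p53 ligase MDM2, had differences of 0.03 and 0.03 (limma, adjusted p = 0.929 and 0.941). Their means were 41.8 and 62.6 FPKM in saline and 42.8 and 63.9 FPKM in CFA. The proteins around the exit tunnel, Rpl4, Rpl17, Rpl22, Rpl23a, Rpl26, Rpl31, Rpl35 and Rpl39, were all 8 negative, with a median of -0.0617, and 1 of them, Rpl35, had an unadjusted p under 0.05. Rpl23a, a docking site for the signal recognition particle and the nascent chain complex, had 39.9, 46.0 and 54.5 FPKM in saline and 31.7, 42.1 and 49.1 FPKM in CFA (difference -0.18 ± 0.10 SE; limma, adjusted p = 0.709). Without CFA 3 it was -0.11, and with the reads of copies summed -0.09 (limma, adjusted p = 0.820 and 0.780). Scaled to the FPKM outside ribosomal protein and mitochondrially encoded genes, some of this list turned positive, among them Rpl4, Rpl22 and Rpl39 (0.005, 0.03 and 0.02). Over the alternatives other than leaving out 1 library, the median of the list ran from -0.0907 to -0.0101. The choice of the list was made with earlier results of these data known, so the common sign under the deposited scaling is a description.

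In the 40S subunit, Rps6, the substrate of the S6 kinases and the usual readout of mTORC1 activity as a phosphoprotein, had one of the smallest differences of RNA level. Its values were 134, 138 and 149 FPKM in saline and 129, 141 and 152 FPKM in CFA, a difference of 0.002 ± 0.045 (SE; limma, adjusted p = 0.995; 95% interval -0.10 to 0.10). Rpsa, also known as the laminin receptor, had means of 117 ± 4.94 FPKM in saline and 118 ± 8.82 in CFA (± SD, 6 libraries each). Rack1, a 40S scaffold that the naming rule does not catch, had 28.7 ± 1.18 and 29.0 ± 1.67 FPKM (± SD, 6 libraries each). Rps13 had a difference of -0.11 (limma, adjusted p = 0.693).

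A few ribosomal proteins are made as the tail of a ubiquitin or ubiquitin-like fusion that is cut after translation. Rps27a had 25.9 ± 1.36 FPKM in saline and 24.8 ± 2.17 in CFA (± SD, 6 libraries each), and Fau, which encodes eS30 behind a ubiquitin-like part, 189 ± 6.45 and 185 ± 5.20 FPKM. Both differences were negative (-0.06 and -0.03) and neither passed the test (limma, adjusted p = 0.837 and 0.858).

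The 4 genes on the X chromosome, Rpl10, Rpl36a, Rpl39 and Rps4x, were looked at apart because Xist, the RNA of the inactive X, exceeded 1 FPKM in 2 saline and 5 CFA libraries. Their differences were -0.04, -0.06, -0.03 and 0.02 (limma, smallest adjusted p = 0.768). Rps4x, whose human counterpart escapes X inactivation, had 122, 129 and 132 FPKM in saline and 118, 129 and 146 FPKM in CFA. The imbalance in Xist applies to every comparison given here, not only to X-linked genes. Group and Xist cannot be fully told apart in these libraries. Rplp1, for one, moved from -0.22 to -0.31 when Xist was added to the fit (limma, adjusted p = 0.417). With Xist as a covariate 69 of the 82 genes had a negative difference and 7 an unadjusted p under 0.05, all lower, and 0 passed the adjusted threshold. In the main fit these counts were 48 and 5. Over all genes tested the median difference in the covariate fit was -0.0053. The shares of all genes that were negative or under that p were not counted there, so whether 69 and 7 exceed them was not tested.

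Of the 18 genes listed for Diamond-Blackfan anaemia, a failure of red cell production, 17 were tested, and 11 differences were negative and 6 positive, with a median of -0.0562 and 0 past the threshold. Rpl35 and Rps29, described above, are on this list.

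The paralogs that could be read were listed well below their parents, with 1 exception. Per gene length, Rpl22 had 24.3 ± 1.12 FPKM in saline and 24.0 ± 1.79 in CFA (± SD, 6 libraries each), against 9.61 ± 0.43 and 8.03 ± 1.52 for Rpl22l1. Rpl7l1 had 12.8 ± 0.46 and 13.1 ± 0.83 FPKM beside 72.3 and 74.9 for Rpl7, and Rps27l, a p53 target in other tissues, 13.1 ± 1.32 and 12.1 ± 1.10 FPKM. Rpl3l, known from heart and skeletal muscle, was at 0.034 to 0.255 FPKM. Rpl39l, known from testis, was above 0 only in saline 1 (0.232 FPKM) and CFA 2 (0.065 FPKM). Rpl10l, also a testis gene, had 0 reads in all 12, which allows up to 3 reads in any library. The exception was Rps27rt, with 116 ± 38.8 FPKM in saline and 81.2 ± 37.1 in CFA, against 44.7 ± 9.76 and 52.7 ± 12.5 FPKM for Rps27 (± SD, 6 libraries each). It holds per gene length only, with lengths of 374 bases for Rps27rt and 1043 for Rps27. In mean reads per library Rps27rt was lower, 1554 against 1683 in saline and 1151 against 2072 in CFA.

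Rps27 (chr3:90212522-90213651, minus strand) and Rps27rt (chr9:114982366-114982739, minus strand) were the pair for which the level of 1 row could not be read alone. Their coding sequences of 255 bases in GENCODE M21 are 100% identical. The sequence, with the start and stop codons in capitals, is shown because every read inside it fits both genes:
Rps27 and Rps27rt coding: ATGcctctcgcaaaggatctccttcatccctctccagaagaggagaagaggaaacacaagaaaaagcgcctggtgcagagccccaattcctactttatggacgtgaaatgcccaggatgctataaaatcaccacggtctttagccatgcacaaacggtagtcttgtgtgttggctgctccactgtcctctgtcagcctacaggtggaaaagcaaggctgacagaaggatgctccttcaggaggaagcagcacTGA
The share of the pair's reads assigned to Rps27rt was 30.1% to 66.4% in the saline libraries and 13.0% to 62.7% in the CFA libraries. Per M reads of the library, Rps27 alone ran from 31.6 to 66.6 reads and Rps27rt alone from 9.95 to 65.7, while their sum ran from 76.6 to 99.0. The fitted differences of the rows pointed in opposite directions, 0.22 ± 0.18 for Rps27 and -0.60 ± 0.32 for Rps27rt (SE; limma, adjusted p = 0.819 and 0.715), the latter being the largest of all 82. Without CFA 4 Rps27rt was at -0.31, and without saline 3 and saline 5 at -0.36 (limma, adjusted p = 0.583 and 0.871). Rps27 was at 0.37 without CFA 2 and at 0.13 without saline 5 (limma, adjusted p = 0.510 and 0.921). For the reads summed over Rps27 and its copies, an alternative chosen after the data were seen, the difference was -0.08 (limma, adjusted p = 0.780).

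The second such gene was Rps3a1 (chr3:86137940-86142702, minus strand), a 40S protein at the mRNA exit. In saline 1 it was listed at 163 FPKM, while the other 11 libraries had 257 to 289 FPKM. In the same library its processed pseudogenes Rps3a2 on chromosome 14 and Rps3a3 on chromosome 13 held 1624 and 1737 reads, against 23 to 69 and 7 to 32 reads in the others. Over 789 coding bases the copies differ from Rps3a1 by 4 and 8 substitutions. The stretch from coding base 519 to 668, counted from the A of the start codon, holds the most of these, and capitals mark the differing bases (in the Rps3a1 line, those that differ in either copy):
Rps3a1: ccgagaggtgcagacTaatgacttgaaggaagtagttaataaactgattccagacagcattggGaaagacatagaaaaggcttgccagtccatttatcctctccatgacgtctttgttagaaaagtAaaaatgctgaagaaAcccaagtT
Rps3a2: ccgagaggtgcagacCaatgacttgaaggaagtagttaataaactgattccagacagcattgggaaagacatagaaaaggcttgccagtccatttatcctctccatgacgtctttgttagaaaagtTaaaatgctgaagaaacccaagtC
Rps3a3: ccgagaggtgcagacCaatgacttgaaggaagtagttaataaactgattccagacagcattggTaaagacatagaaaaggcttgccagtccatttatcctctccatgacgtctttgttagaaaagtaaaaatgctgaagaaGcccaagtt
The substitutions here are T534C, A645T and T668C in Rps3a2 and T534C, G582T and A660G in Rps3a3. Rps3a1 and these copies summed to 250 reads per M reads in saline 1 and 252 to 289 in the other libraries. The difference of Rps3a1 was 0.13 ± 0.11 (SE; limma, adjusted p = 0.826) with all libraries and 0.01 without saline 1 (limma, adjusted p = 0.975).

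**Figure D4:**
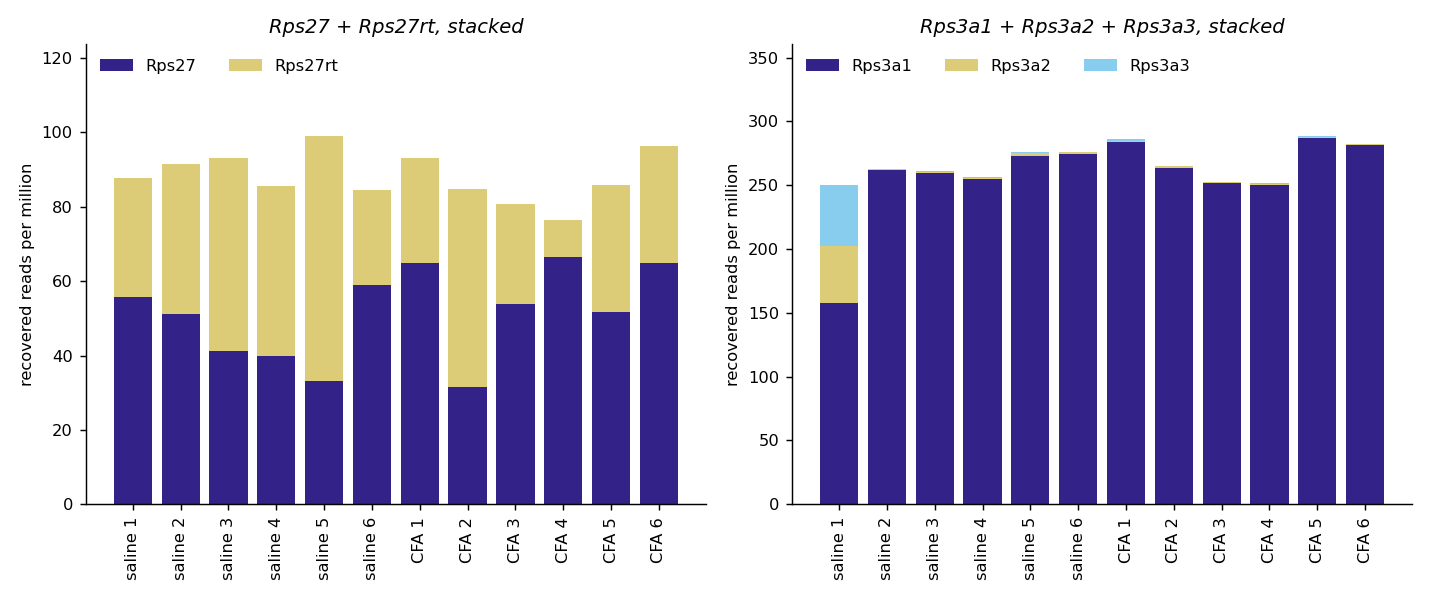
Recovered reads per M reads of each library, stacked, for Rps27 and Rps27rt (left) and for Rps3a1 and its pseudogenes Rps3a2 and Rps3a3 (right). On the left the boundary between the genes moves from library to library under a total of 76.6 to 99.0, and on the right saline 1 alone holds a visible share in the pseudogenes.

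Such sharing was common. Of the 75 standard genes tested, 70 share at least 1 stretch of 100 bases with a gene elsewhere in the genome. Adding the reads of copies lowered the coefficient of variation over the 12 libraries from 28.4% to 8.56% for Rpl17, from 16.4% to 7.45% for Rpl30 and from 14.0% to 6.08% for Rpl21. For Rpl7a it went from 40.2% to 24.6%, so the high values in CFA 4 and CFA 6 remained after summing. In saline 1, the pseudogene Gm6472 of Rps7 also held 2145 reads, against 885 to 1342 in the other libraries. The spread of a gene did not simply follow the sharing: the median within-group SD of log2(FPKM + 1) was 0.110 over 5 genes with no shared stretch, 0.0984 over 36 genes sharing up to 25% of their stretches and 0.0823 over 34 genes sharing more. The largest SD lay in the last class, at 0.424. How the authors' counting placed reads that fit several genes is not given in the sources used here.

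Some genes of standard ribosomal proteins were listed near 0. Rps10 had means of 0.53 FPKM in saline and 0.63 FPKM in CFA, Rpl24 0.24 and 0.27, and Rpl13a 4.76 and 4.94, while the tested genes had a median of 64.7. In each case an overlapping gene on the same strand was listed at 0 in all libraries: RPS10-NUDT3 covers 475 exon bases of Rps10, Gm28037 484 of Rpl24 and Gm45713 621 of Rpl13a. The paralog Rpl36al (0.18 and 0.19 FPKM) is overlapped over 332 bases by Gm49383, also at 0. These genes also share sequence with copies elsewhere. Rps10 had 23 to 82 reads per library alone and 969 to 1296 with 2 copies summed. Rpl24 had 3 to 22 alone and 72 to 198 with 3 copies summed. Rpl13a moved less, from 302 to 487 reads alone to 331 to 525 with 1 copy summed. The part of these overlaps and copies in the listed levels was not tested, so the levels of these genes are uncertain. Just inside the filter lay Rpl10-ps3 with 2.40 FPKM in saline and 2.69 in CFA, and just outside it Rpl36a-ps1 with 1.47 and 0.88.

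Within groups the ribosomal protein genes were about as steady as other genes of their level. The median within-group SD was 0.0924 for the 82 genes, 0.0978 for the 1992 other genes at like levels and 0.119 for all genes tested. They moved together more than those genes: after removal of group means, the median correlation over pairs of the 75 standard genes across the 12 libraries was 0.276, with 75.7% of pairs positive, against 0.053 and 54.5% for the other genes at like levels. The pairs share libraries and depth, so this is a description. The libraries farthest from the rest were in the CFA group. The median deviation of the 82 genes from their own means was -0.071 in CFA 2 and -0.083 in CFA 3, and 0.052 in CFA 1, against -0.027 to 0.049 in the saline libraries. CFA 3 held the lowest of the 12 values for 27 genes and CFA 2 for 17, and CFA 1 the highest for 21.

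CFA 4 moved differently. It held the highest value of 23 genes and the lowest of 16, with a median deviation of -0.013. Large positive deviations there were those of Rpl7a, Rpl17, Rpl21, Rps27 and Rpl37, and the largest negative ones those of Rps27rt, Rpl22l1, Rpl9-ps6, Rps19 and Rpl35. In this library the deviation was related to the GC content of the mRNA: Spearman's rho was 0.348 across the 82 ribosomal protein genes and 0.521 across 12041 genes tested, where the other 11 libraries lay between -0.257 and 0.113 and between -0.284 and 0.168. In CFA 4 the median deviation was -0.0715 for the 27 genes lowest in GC and 0.155 for the 27 highest, with 7 and 16 of them above 0. These correlations are across genes, which are not independent. The genes just named were mixed around the median GC of 51.2%. Of the positive ones, Rpl17, Rpl21 and Rpl37 lay below it (46.5%, 49.2% and 48.3%), and Rpl7a and Rps27 above it. Of the negative ones, Rpl35 and Rps19 lay above it (56.7% and 53.0%), and Rps27rt, Rpl22l1 and Rpl9-ps6 below it. Without CFA 4, 8 genes had an unadjusted p under 0.05, all lower in CFA, namely the 5 counted above with Rpl28, Rps15 and Rps28. Of the 82, 0 passed the adjusted threshold (smallest adjusted p = 0.148, limma). In that fit Rps15 had an unadjusted p of 0.0469 and an adjusted p of 0.352 (limma). Rps29 in the main fit had 0.0457 and 0.646 (limma). More genes of the whole table were thus under 0.05 without CFA 4 than in the main fit. Without CFA 2 the count was also 8, 6 lower and 2 higher, with Rps27 on the higher side. The share of all genes at that threshold was not counted in these fits. Whether 8 of 82 exceeds it was not tested.

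**Figure D5:**
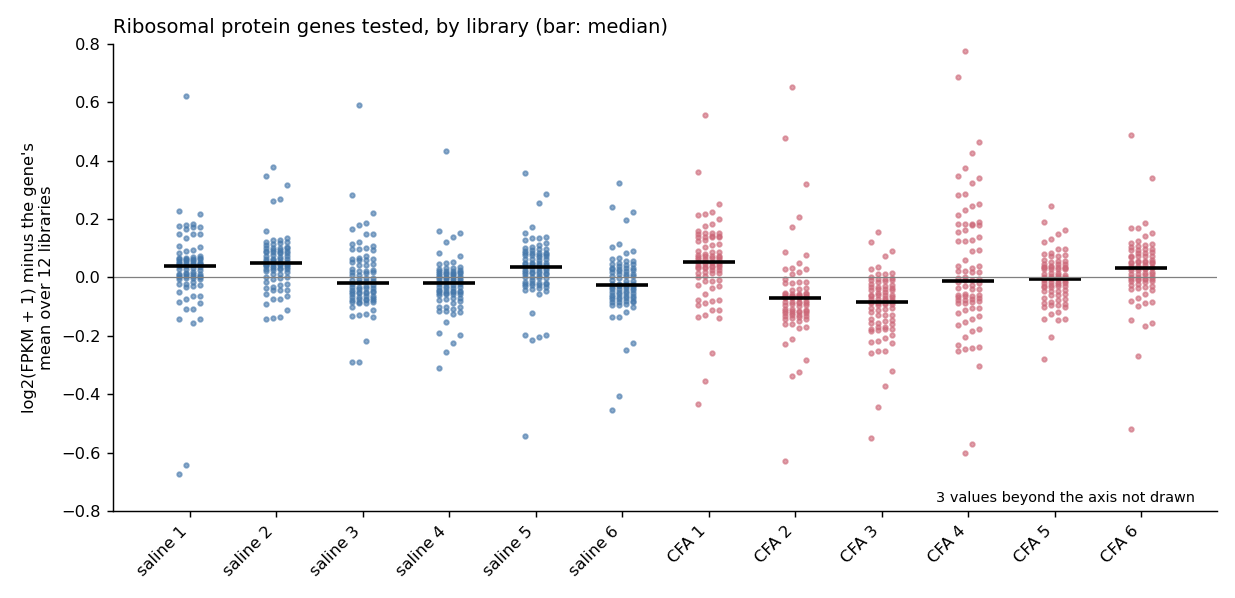
Deviation of each of the 82 genes from its own mean over 12 libraries, on the log2(FPKM + 1) scale, by library, with the median as a bar. CFA 2 and CFA 3 have the lowest medians (-0.071 and -0.083), and CFA 4 has a wide spread around a median near 0. The 3 values outside the axis are not drawn.

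The start of these genes was read from promoter windows of RefSeq (build GRCm38.p6), which matched 65 of the 93 genes. A TOP-like run was taken as a C followed by at least 4 bases that are C or T, on the strand of the gene only, within 10 bases before to 20 after an annotated start. It was found in 42 of 65 genes (64.6%), against 36.5% of all 27025 genes of the table. The windows of 30 bases are shown for Rps6, for genes named above, and for Rps15, which has no such run there, with the run in capitals:
Rps6 (chr4:86857348-86857377, minus): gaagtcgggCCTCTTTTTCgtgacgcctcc
Rpl35 (chr2:39005112-39005141, minus): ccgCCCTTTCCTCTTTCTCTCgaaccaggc
Rpl22l1 (chr3:28805498-28805527, plus): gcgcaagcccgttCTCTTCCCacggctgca
Rps27 (chr3:90213629-90213658, minus): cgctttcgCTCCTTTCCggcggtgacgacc
Rps27rt (chr9:114982720-114982749, minus): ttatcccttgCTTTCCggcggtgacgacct
Rps15 (chr10:80292421-80292450, plus): cagagctcgcgataactgcgcaagcgcagc
A run near an annotated start is a match of letters, and its absence says only that these letters are not in the window. The Rps15 window ends before the start of the deposited gene, at 80292453, so it does not show the first bases of that gene model.

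Genes that serve the ribosome were compared in the same way. Of 16 other mRNAs with a TOP tract, 11 differences were negative and 5 positive, with 0 past an unadjusted p of 0.05. Gas5, a non-coding TOP RNA, had 10.5 ± 1.99 FPKM in saline and 12.3 ± 1.07 in CFA (± SD, 6 libraries each; limma, adjusted p = 0.677). Saline 1 was its lowest library, at 6.85 FPKM, and without it the difference went from 0.22 to 0.12 (limma, adjusted p = 0.739). Tpt1, which encodes the translationally controlled tumour protein, had 153 ± 8.14 and 144 ± 8.18 FPKM, and Eef1b2, an elongation factor subunit, 43.3 ± 1.89 and 40.9 ± 1.90 FPKM (limma, adjusted p = 0.695 and 0.686).

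Of 29 translation initiation factors, 18 were negative and 11 positive, again with 0 past an unadjusted p of 0.05, and the X-linked Eif2s3x, which escapes X inactivation, had the smallest unadjusted p (0.0890), with a difference of 0.27 (limma, adjusted p = 0.717). With Xist as a covariate its difference turned to -0.04 (limma, adjusted p = 0.967). Of 27 ribosome biogenesis factors, 14 were positive and 13 negative, and the 2 with an unadjusted p under 0.05 were both lower: Gar1, of the pseudouridylation particle (7.48 ± 0.77 FPKM in saline and 6.47 ± 0.57 in CFA; limma, adjusted p = 0.545), and Ubtf, the RNA polymerase I transcription factor (23.2 ± 0.86 and 21.7 ± 1.22 FPKM; limma, adjusted p = 0.650).

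Of 17 genes of mTORC1 and S6 kinase signalling, 10 were negative and 7 positive. Akt1s1, which encodes the mTORC1 inhibitor PRAS40, had 13.7, 14.1 and 14.7 FPKM as lowest, median and highest saline library and 12.3, 12.7 and 13.5 FPKM in CFA. Its groups did not overlap, as those of 0.495% of all genes did not, and its difference was -0.13 ± 0.04 (SE; limma, adjusted p = 0.327). The kinase genes Rps6kb2 and Rps6ka3 had differences of 0.18 and 0.19 (limma, adjusted p = 0.719 and 0.779). Without CFA 1 Rps6kb2 was at 0.12, and Rps6ka3 was at 0.11 without CFA 6 and 0.28 without CFA 4.

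Mitochondrial ribosomal proteins, which are encoded in the nucleus and serve another ribosome, gave 56 negative and 21 positive differences of 77 tested, with a median of -0.0390 and 0 past the threshold. An unadjusted p under 0.05 was found for 9, all lower. Over the whole table, 52% of differences were negative and 4.56% of genes were lower at that level. Mrpl34 had 27.5, 29.0 and 34.3 FPKM in saline and 22.6, 25.3 and 27.3 FPKM in CFA, which did not overlap, and Mrpl12 and Mrpl36 had differences of -0.23 and -0.15 (limma, adjusted p = 0.308, 0.308 and 0.389). Beside the cytosolic set, with 5 of 82 at that level, this is 9 of 77, and the difference between the sets was not tested. Scaled to the FPKM outside ribosomal protein and mitochondrially encoded genes, the median of the mitochondrial set was 0.0040, and that of all genes tested was 0.0403.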

How the data were processed

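As the authors deposited them, values are in FPKM, relative to gene length and to the reads of the library, beside the gene length in bases. Per the labels' protocols, libraries were made from 0.2 µg of RNA and read as pairs of 150 bases, and HISAT2 2.0.5 and the build mm10 are named in the submitters' processing notes. Which counter was used, and how it placed reads with several matches, is not given in the sources used here. Whole reads were recovered from FPKM times gene length, and 100% of values came out whole to within 0.01 read. Another 6 columns of per-sample values, in a second table, were not used. The unadjusted and adjusted p-values are from limma 3.58.1 (R 4.3.3; eBayes with a trend) on log2(FPKM + 1), two-sided, Benjamini-Hochberg over 13345 genes with at least 1 FPKM in at least 6 libraries, threshold 0.05. Fold changes understate those of low genes. The fit was tested on simulated data.

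Copies were matched by shared stretches of 100 bases in GENCODE M21 transcripts with Python 3.11.15, pandas 2.3.3, numpy 2.4.6 and edlib 1.3.9.post1, and figures drawn with matplotlib 3.10.9. The deposited gene length was the M21 exon length for all but 7 of the genes checked. GC content is that of the longest protein-coding transcript. Intervals cover 95%. Named genes were those past the threshold, up to 8 per direction with the smallest p, the 6 most and 4 least abundant, the stalk, 5S particle, fusion, paralog, parent and X-linked genes, Rps6, Rpsa, Rack1, the 3 with the smallest p of each related list and those next to the filter. Genes named for copies, overlap, library values or promoter windows were chosen after their values were seen. A few genes are left unnamed and are not reported here, though counts and medians include them. The genes, lists and tests were chosen with earlier results of these data known. Alternatives covered the pseudocount, filter, scaling, trend, a block for the replicate number, covariates, left-out libraries, voom on recovered reads and summed copies, the last pair chosen after seeing the data.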

Additional observations from a re-analysis of the deposited data

Results flagged for a closer look

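In 6 of 72 tests of a group of 6 libraries, over the ribosomal protein genes named and their share of reads and FPKM, 1 library stood apart from the other 5 by more than Dixon's limit, where chance gives about 3.6. CFA 4 accounted for 3 of them, each time as the high library of its group: Rpl41 at 252 FPKM (others 184 to 209), Rpl8 at 216 FPKM (others 171 to 181) and Rps15 at 388 FPKM (others 301 to 326). Saline 1 was the low library for Rps3a1, at 163 FPKM (others 260 to 282), where the pseudogenes Rps3a2 and Rps3a3 held 1624 and 1737 reads, and for Rpl7a, at 15.9 FPKM (others 21.9 to 24.5). CFA 6 was the high library for Rpl39, at 40.4 FPKM (others 33.4 to 35.1).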

How the results depend on the processing

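In all 25 alternatives to the fit, 0 ribosomal protein genes passed the threshold, and none of the 57 named genes tested did, but 19 of these took the other sign in at least 1 alternative. The number at an unadjusted p under 0.05 was 5, 4 to 8 when a library was left out, 3 without saline 3 and saline 5, and 3 scaled outside ribosomal protein and mitochondrial genes, all 3 of them higher. The share of all genes at that level was counted for the main fit only, so these shifts are not read as results about ribosomal protein genes. Over all genes 4 passed, 1 to 11 when a library was left out (11 without saline 3, 10 without CFA 1, 1 without saline 5 and without CFA 6), 2 with no filter, 2 with no trend and 1 with Xist as a covariate. Libraries of the same number were not shown to be pairs: their deviations correlated between -0.012 and 0.159, 2 of 6 over 0.1, and 2 saline libraries correlated best with their own number. With the replicate block 1 gene of all passed, and the medians were the same, -0.0228 for the ribosomal protein genes. Scaled outside ribosomal protein and mitochondrial genes, the median became 0.0285 for ribosomal protein genes, 0.0406 for 60S, 0.0160 for 40S, 0.0139 for X-linked, 0.0040 for mitochondrial ribosomal proteins, -0.0146 for the ubiquitin fusions, 0.0398 for other TOP mRNAs, 0.0402 for initiation factors, 0.0550 for biogenesis factors and 0.0364 for mTORC1 and S6 kinase genes. As TPM it became -0.0080 for mitochondrial ribosomal proteins, 0.0291 for initiation factors, 0.0484 for biogenesis factors and 0.0326 for mTORC1 and S6 kinase genes. The median of all genes tested moved as well, to 0.0403 scaled outside those genes and to 0.0328 as TPM. The cause of these shifts was not tested. Count models on recovered reads, listed as alternatives, were not run, because the deposited unit is FPKM, and voom took their place. The 95% interval of 63 of 82 genes lay within 0.25 of 0. It holds counting error and the spread among libraries together, and the part of depth in it was not tested.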
